A study of Rattus norvegicus with 12 samples.

Results

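The genes that make cholesterol, move it within and out of cells, and sense its level were followed in 6 gene arrays of cultured rat Sertoli cells. Genes were taken from a list of 33, and each had to be the single gene symbol of a main probe set of the array. Where a gene had several such probe sets, the brightest over the 6 arrays was used, which applied to Acat2 and Abca1. In all 29 genes were measured, of 18304 genes with such a probe set. They comprise 15 synthesis genes, of which 5 act from acetyl-CoA to the isoprenoid units and 10 from the making of squalene to cholesterol, 6 sterol control genes, and 8 genes of cholesterol transport and storage. Mvk had no probe set of its own, and Fdps, Hsd17b7 and Srebf1 were found only on probe sets with several symbols, so these 4 genes were left out.

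Sertoli cells line the seminiferous tubules of the testis and support the germ cells. They were isolated from testes of 9-day-old rats and kept in DMEM/F12 medium with 10% fetal bovine serum, and after 24 h they were left as controls or given 0.1 mM MBP for a further 24 h before total RNA was extracted. The series design calls the control solvent treated, and the labels neither spell out MBP nor give the strain or the number of animals. Each group had 3 gene arrays, carrying the sample numbers 1, 2 and 3, and a microRNA array set of the same layout exists beside them. What a number stands for is not given in the labels, so the spread between these samples may be technical. The p-values for MBP minus control rest on that spread where the number is left out of the fit. Those between sample numbers, or with the number in the fit, rest on how unevenly MBP and control arrays differ from number to number. They cannot tell whether numbers differ by more than repeat cultures of 1 number would.

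Animal cells build cholesterol from acetyl-CoA through mevalonate, isoprenoid units, squalene and lanosterol. The pathway is controlled by the transcription factor SREBP2, encoded by Srebf2, which the escort protein encoded by Scap carries from the endoplasmic reticulum to the Golgi when sterols are scarce and which the Insig proteins hold back when sterols are plentiful. The liver X receptors, encoded by Nr1h2 and Nr1h3, are activated by oxysterols and switch on export genes such as Abca1, Abcg1 and Apoe. Sertoli cells take up lipids from germ cells and lipoproteins, and cholesterol is needed for germ cell membranes.

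Promoter sequences are shown for 4 genes that were higher on the arrays of number 3 and for Nr1h2, which was not, because genes under SREBP2 commonly carry binding sites of NF-Y (CCAAT) and SP1 (GGGCGG) close to their start. They run from 250 bases before to 50 bases after the annotated start in RefSeq, build GRCr8, and read 5′ to 3′ on the strand of the gene, with every CCAAT or GGGCGG on either strand in capitals.
Hmgcs1, chr2:53382054-53382353, plus strand: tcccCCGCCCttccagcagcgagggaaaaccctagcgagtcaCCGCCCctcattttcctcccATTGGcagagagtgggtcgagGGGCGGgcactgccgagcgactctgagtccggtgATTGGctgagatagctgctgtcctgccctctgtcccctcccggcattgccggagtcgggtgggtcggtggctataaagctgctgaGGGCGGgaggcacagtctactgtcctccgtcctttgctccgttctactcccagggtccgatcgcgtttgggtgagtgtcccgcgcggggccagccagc
Msmo1, chr16:29746863-29747162, plus strand: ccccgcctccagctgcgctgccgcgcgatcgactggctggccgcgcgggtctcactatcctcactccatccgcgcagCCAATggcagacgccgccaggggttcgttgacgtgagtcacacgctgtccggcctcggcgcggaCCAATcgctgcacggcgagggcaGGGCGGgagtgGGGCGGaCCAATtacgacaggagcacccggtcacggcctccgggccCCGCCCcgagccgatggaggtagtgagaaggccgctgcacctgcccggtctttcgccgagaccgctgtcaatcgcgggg
Nsdhl, chrX:155817110-155817409, plus strand: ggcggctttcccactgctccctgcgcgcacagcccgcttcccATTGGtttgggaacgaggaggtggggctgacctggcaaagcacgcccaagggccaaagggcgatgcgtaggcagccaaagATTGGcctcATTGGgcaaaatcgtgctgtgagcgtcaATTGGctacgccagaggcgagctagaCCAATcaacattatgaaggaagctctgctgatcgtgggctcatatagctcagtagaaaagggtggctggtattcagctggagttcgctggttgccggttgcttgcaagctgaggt
Insig1, chr4:8057720-8058019, minus strand: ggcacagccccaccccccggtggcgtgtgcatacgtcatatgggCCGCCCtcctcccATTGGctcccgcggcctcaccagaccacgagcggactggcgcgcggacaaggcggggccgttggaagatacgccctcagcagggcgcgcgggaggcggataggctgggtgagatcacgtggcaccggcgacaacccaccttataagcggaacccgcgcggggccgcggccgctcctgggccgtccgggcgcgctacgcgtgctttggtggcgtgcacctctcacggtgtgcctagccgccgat
Nr1h2, chr1:104183814-104184113, minus strand: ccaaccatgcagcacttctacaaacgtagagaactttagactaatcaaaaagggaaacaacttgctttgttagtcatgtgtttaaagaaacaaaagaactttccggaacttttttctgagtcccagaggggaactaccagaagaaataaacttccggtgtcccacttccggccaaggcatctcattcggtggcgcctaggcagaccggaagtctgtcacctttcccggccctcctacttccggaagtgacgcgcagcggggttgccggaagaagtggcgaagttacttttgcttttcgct

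The Nsdhl promoter held 5 CCAAT matches and no GGGCGG, the Msmo1 promoter 3 of each, the Hmgcs1 promoter 2 CCAAT and 4 GGGCGG, and the Insig1 promoter 1 of each. The Nr1h2 promoter held neither. These genes were picked for display after their values were seen. Dhcr7, Cyp51 and Acat2, also higher in number 3, held no CCAAT and 2 GGGCGG each, while Npc2, lowest in number 3, held 3 CCAAT and 6 GGGCGG. Whether motif counts follow the order of the arrays was not tested. Of the 24 measured genes with an entry in the table, 16 (66.7%) had CCAAT, against 39.6% of 27457 genes and 39.4% of the 3590 genes with a promoter entry and a probe set above background on all arrays. GGGCGG was found in 19 (79.2%), against 36.0% and 69.6%. By class, CCAAT stood in 9 of 12 synthesis, 3 of 6 control and 4 of 6 transport genes, and GGGCGG in 10, 3 and 6 of them. Both motifs occurred in 13 genes and neither in 2. The letters TCACNCCAC, a form of the sterol regulatory element, occurred in 0 of the 24 windows (1.25% of all genes), and the direct repeat with a spacer of 4 bases that liver X receptors bind also in 0 (0.00728%). Each of these 2 was searched in a single exact spelling, which few genes hold at all, and looser forms were not searched. A count of 0 therefore cannot tell whether any of these windows holds a sterol regulatory element. Nor can it tell whether any, that of Abca1 included, holds a site for liver X receptors. Each motif was searched on both strands, overlapping matches were counted, and a gene with several starts counted if any start held the motif. Abcg1, Fdft1, Pmvk, Sqle and Stard4 had no entry.

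Array signals are log2 values, so a difference of 1 is a 2-fold change. Background was taken as the 95th percentile of 1153 intron control probe sets of each array and lay at 5.67 to 5.88 on the arrays of numbers 1 and 2 and at 6.196 and 6.18 on the control and MBP arrays of number 3. Of the 29 genes, 20 were above it on all 6 arrays, Mvd on 2 and Npc1 on 5. Pmvk, Tm7sf2, Insig2, Nr1h3, Stard4, Abca1 and Abcg1 were below it on every array, so the signals of these 7 may not reflect the transcript. Of 12 measured genes of a Sertoli marker list, 5 were above background on all arrays (Wt1, Gata4, Clu, Inhba and the probe set named for Fshr). Sox9 was above it on 5 arrays. The other 6, among them Amh, Cldn11, Inha and Dhh, did not reach background on any array. Of 12 measured markers of peritubular myoid cells and fibroblasts, 11 were above background on all arrays. In bulk RNA, fewer cells of a type and less RNA per cell cannot be told apart.

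No cholesterol gene passed the test for a difference between MBP and control cultures. At an adjusted p under 0.05 in limma 0 of the 29 genes and 0 of 27342 probe sets (0.0%) were called, with a smallest adjusted p of 1, and at an unadjusted p under 0.05 the counts were 0 genes and 351 probe sets (1.28%, or 0.189% of those above background). Synthesis genes had a median log2 difference, MBP minus control, of -0.0685, with 11 of 15 lower, against -0.00649 over all probe sets and -0.0303 over the 6341 probe sets above background on all arrays. Transport genes had a median of -0.0146, with 4 of 8 lower, and sterol control genes -0.021, with 4 of 6 lower. In all 19 of 29 genes had the lower mean with MBP, beside 53.6% of all probe sets, and 17 of the 20 above background, beside 68.6% of probe sets above background. In the 3 pairs of arrays with the same number the synthesis median was -0.0761, -0.0636 and -0.013. Leaving out control array 3, MBP array 1 or MBP array 2 turned the median of -0.0685 to 0.101, 0.0482 and 0.0556. These fits took no account of the number, so leaving out 1 array also brings differences between numbers into the comparison.

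The synthesis gene of smallest p was Ebp (X chromosome, 15832773 to 15839092, Rnor_5.0), which encodes the sterol isomerase that shifts a double bond in the ring. Its log2 signals were 6.97, 6.97 and 7.12 in control arrays 1, 2 and 3 and 6.78, 6.904 and 6.97 in MBP arrays 1, 2 and 3. Each MBP array lay below the control array of its number, and the groups overlapped. The difference was -0.13 (95% interval -0.32 to 0.05, limma, unadjusted p = 0.128), with group means of 7.02 ± 0.09 and 6.89 ± 0.10 (SD, n = 3) and an adjusted p of 1. Pmvk, the phosphomevalonate kinase gene (chromosome 2, 208198108 to 208207798), was the only gene whose groups did not overlap, which held for 3.43% of all probe sets, and for 0 of the 20 genes above background, beside 1.45%. It stood at 5.54, 5.62 and 5.61 in control arrays and at 5.64, 5.64 and 5.76 in MBP arrays, all below background.

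Among transport genes, Npc2, which encodes the lysosomal protein that hands cholesterol to NPC1, had 8.56, 8.66 and 8.48 in control arrays and 8.56, 8.53 and 8.41 in MBP arrays. The groups overlapped, and the difference was -0.07 (95% interval -0.24 to 0.11). The probe set of Npc2 is annotated as able to cross-hybridise. Abcg1, an exporter of cholesterol to lipoproteins, was below background on all arrays, at 4.59, 5.05 and 4.25 in control and 4.85, 5.08 and 4.52 in MBP arrays. It was higher with MBP in each pair of same-numbered arrays, and the groups overlapped.

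For 27 of the 29 genes the 95% interval of the difference lay within 2-fold either way, beside 26899 of 27342 probe sets and 6176 of the 6341 above background. The exceptions among the 29 were Dhcr7, with an interval from -1.26 to 0.77, and Apoe, from -1.06 to 0.79. With the sample number as a block all 29 intervals lay within 2-fold, beside 27327 of 27342 probe sets. Still 0 genes and 0 probe sets passed in limma (smallest adjusted p = 0.865). In that fit 3 genes had an unadjusted p under 0.05, beside 4.59% of all probe sets, and 2 of the 20 above background, beside 3.03%. By limma they were Dhcr7 (-0.24, unadjusted p = 0.0466), Nr1h2 (-0.18, unadjusted p = 0.0213) and Abcg1 (higher with MBP, below background, unadjusted p = 0.0471), each moving the same way in all 3 pairs and each with an adjusted p of 0.865.

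**Figure D1:**
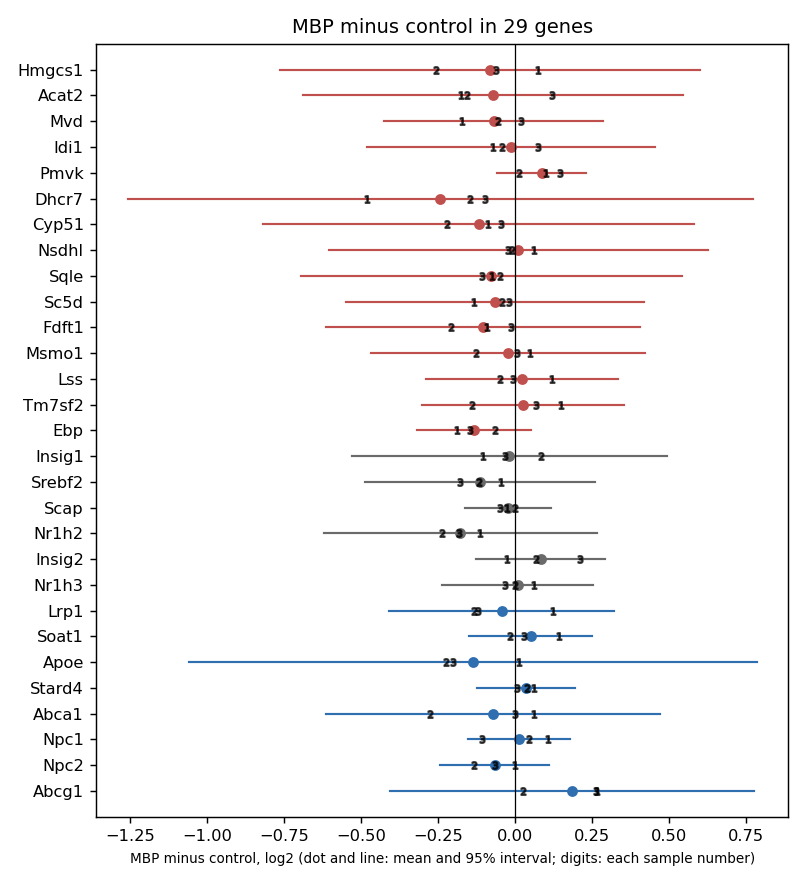
MBP minus control log2 differences of the 29 genes, 1 per line, with synthesis genes in red, sterol control genes in grey and transport genes in blue. Dots and lines give the mean and its 95% interval in limma without the block, and the digits 1, 2 and 3 the difference within each sample number. Every interval includes 0, and those of Dhcr7 and Apoe reach furthest.

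Between sample numbers the synthesis genes had number 3 highest in common, but not the order of the others, as number 2 exceeded number 1 in 10 and was lower in 5. All 15 synthesis genes had their highest mean in number 3, beside 33.2% of all probe sets, and 3 of the 8 transport genes did. Of the 20 genes of any class above background on all arrays 17 did, beside 36.3% of such probe sets. Among the 15, Pmvk and Tm7sf2 were below background on every array and Mvd was above it on 2 only. Among the 3, Stard4 was below background on every array. The median synthesis gene was 0.501 log2 units higher in number 3 than in number 1 and 0.518 higher than in number 2. For transport genes these medians were 0.0685 and -0.121, for sterol control genes 0.0148 and -0.00629, for all probe sets 0.0 and -0.0101, and for probe sets above background -0.0191 and -0.0221. The transport medians were less settled, since the first was -0.0204 without control array 1 and the second was -0.076 without MBP array 3. Over the transport genes above background on all arrays, which were Npc2, Soat1, Lrp1 and Apoe alone, they were 0.163 and -0.0456. Between numbers 2 and 1 the synthesis median was 0.0349 and the transport median 0.108. The difference between the 2 classes was not tested.

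Taken apart, the control and the MBP arrays each had number 3 highest by the synthesis medians. Same-numbered arrays of the 2 groups deviated together over the whole array (correlations of 0.567, 0.603 and 0.779), so the groups are not independent support. Control array 3 exceeded control arrays 1 and 2 by synthesis medians of 0.462 and 0.421, and MBP array 3 exceeded MBP arrays 1 and 2 by 0.528 and 0.523. Both arrays of number 3 lay above the other 4 for 13 of 15 synthesis genes, 3 of 6 control genes and 3 of 8 transport genes, beside 13.8% of all probe sets and 26.3% of those above background. Both arrays of number 2 lay above the other 4 for Npc1, Abca1, Abcg1 and Apoe among the transport genes and for Nr1h2 among the control genes, beside 11.4% of all probe sets. Of the 20 genes above background on all arrays this held for 2, Nr1h2 and Apoe, beside 19.8% of such probe sets. Abca1 and Abcg1 were below background on every array. Both arrays of number 2 lay below the other 4 for Idi1 and Sqle (9.72% and 19.3%). Both arrays of number 1 were lowest for 8 genes (9.79% and 14.2%), of which 5 were synthesis genes, and highest for Insig2 and Nr1h3 (9.55% and 15.9%). Both arrays of number 3 were lowest for Nr1h3, Npc2 and Abcg1 (15.5% and 30.4%).

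**Figure D2:**
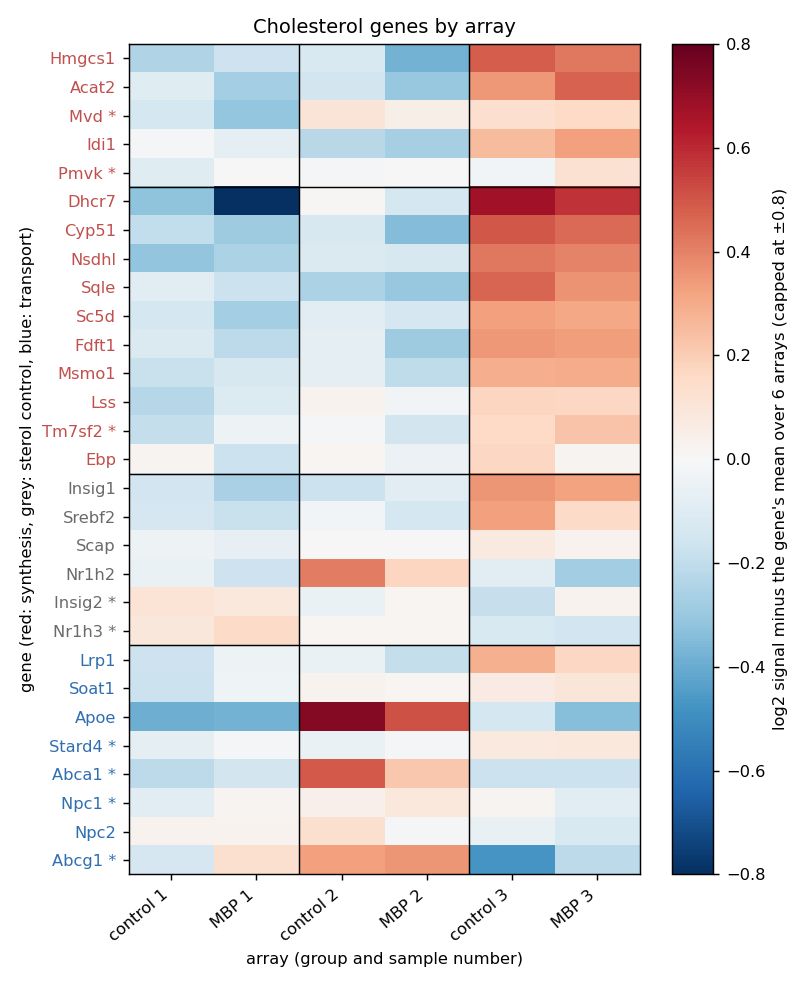
Log2 signal of each of the 29 genes (rows) on each array (columns, ordered by sample number) minus the mean of the gene over the 6 arrays, with the colour scale ending at 0.8 either way. Asterisks mark genes not above background on all 6 arrays. The red block at the upper right is the synthesis genes on the 2 arrays of number 3. Apoe, Nr1h2, Npc1, Abca1 and Abcg1 are highest on the 2 arrays of number 2. Abca1 and Abcg1 lie below background on every array.

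In a limma fit of sample number and group, the F-test over number called 15 of 29 genes at an adjusted p under 0.05, beside 9.62% of all probe sets and 24.1% of those above background. Of the 20 genes above background on all arrays 14 were called. Fitted on the 6341 probe sets above background alone, the test called 16 of these 20 genes, beside 63.9% of those probe sets. The calls fell on 10 of 15 synthesis genes, 3 of 6 control genes and 2 of 8 transport genes. Number 3 exceeded number 1 in 12 genes (4.39% of all probe sets, 10.6% of those above background) and was lower in 0 (4.18% and 10.3%). Number 3 exceeded number 2 in 12 genes (5.72% and 14.5%) and was lower in 4 (4.82% and 12.6%). Numbers 2 and 1 differed in 1 gene, Apoe, higher in number 2 (0.135% and 0.237%), and 0 genes were lower (0.197% and 0.505%). The fit had 2 residual degrees of freedom, and leaving out any 1 of the 6 arrays left 1 and ended all calls, for these genes and for the array as a whole.

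Measured beside these calls, 7 contractile and collagen genes of the myoid and fibroblast list were also higher in number 3 than in number 1. The summed signal of its 12 measured members was 13.63, 13.61 and 14.24 on a log2 scale in control arrays 1, 2 and 3 and 13.65, 13.5 and 14.22 in MBP arrays 1, 2 and 3. Among the 7, Des, Myh11, Actg2 and Cnn1 exceeded number 1 by 2.19, 1.95, 2.52 and 1.87, while Lum, Thy1 and Dcn were lower in number 3. The sum of the 12 measured Sertoli markers was 11.64, 11.77 and 11.92 in control and 11.67, 11.78 and 11.96 in MBP arrays, with Sox9, Clu and Inhba higher in number 3 than in number 1. It includes a bright probe set named for Fshr that is annotated with transcripts of another gene as well. Germ cell, macrophage, endothelial and red cell markers were below background on all arrays, and of 5 Leydig cell markers Star alone was above it. The part of cell makeup and of the higher background of the number 3 arrays in the cholesterol gene differences was not tested.

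Of the 5 early genes of the pathway, 3 passed the F-test and were highest in number 3. Hmgcs1 (chromosome 2, 70800442 to 70809191, Rnor_5.0), whose promoter is shown above, encodes the synthase that makes HMG-CoA. It had log2 signals of 8.504, 8.62 and 9.23 in control arrays 1, 2 and 3 and 8.58, 8.36 and 9.17 in MBP arrays. Both arrays of number 3 lay above the other 4, by 0.66 ± 0.10 (SE) over number 1 (limma, adjusted p = 0.0272) and 0.71 ± 0.10 over number 2 (adjusted p = 0.0191), or 1.58-fold and 1.63-fold. Acat2, which joins acetyl-CoA units in the cytosol, had 7.72, 7.67 and 8.17 in control and 7.55, 7.52 and 8.29 in MBP arrays. Number 3 was again above the rest, by 0.59 ± 0.10 and 0.63 ± 0.10 over numbers 1 and 2 (limma, adjusted p = 0.0337 and 0.0245). The other Acat2 probe set had 7.31, 7.28 and 7.68 in control and 7.29, 7.31 and 7.92 in MBP arrays, with number 3 again highest. For Acat2 the annotated transcript and the probe set lie on different chromosomes, so the assignment is less certain.

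Idi1, the isomerase of the isoprenoid units (chromosome 17, 59783326 to 59789305), had 6.701, 6.49 and 6.96 in control and 6.63, 6.45 and 7.04 in MBP arrays. It was lowest in number 2, so only number 3 against number 2 passed (0.53 ± 0.07, limma, adjusted p = 0.0168), and number 3 against number 1 had 0.34 (adjusted p = 0.0532). Mvd, the mevalonate diphosphate decarboxylase gene, was above background on 2 arrays only, with number means of 5.78, 6.08 and 6.15. Its F-test had an adjusted limma p of 0.0674, while number 3 against number 1, both below background, had an adjusted p of 0.0496. Pmvk, below background, had number means of 5.59, 5.63 and 5.69.

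Of the 10 genes from squalene onward, 7 passed the F-test, each highest in number 3. Fdft1, the squalene synthase gene (chromosome 15, 50104043 to 50132096), had 8.27, 8.31 and 8.73 in control and 8.18, 8.105 and 8.72 in MBP arrays. Number 3 was above the other arrays, by 0.501 ± 0.07 over number 1 (limma, adjusted p = 0.0277) and 0.52 ± 0.07 over number 2 (adjusted p = 0.0213). Sqle, which encodes squalene epoxidase, a rate-limiting enzyme of the later pathway (chromosome 7, 100196963 to 100211948), had 7.99, 7.83 and 8.55 in control and 7.91, 7.78 and 8.44 in MBP arrays. Its rise over number 2 was 0.69 ± 0.06 (1.62-fold, limma, adjusted p = 0.00809) and over number 1 0.54 ± 0.06 (adjusted p = 0.0157), and both arrays of number 2 lay below the other 4.

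Cyp51, the lanosterol demethylase gene (chromosome 4, 27078469 to 27096431), had 8.57, 8.64 and 9.26 in control and 8.48, 8.42 and 9.22 in MBP arrays. Numbers 1 and 2 both had a mean of 8.53, and number 3 exceeded them by 0.71 ± 0.07 each (1.64-fold, limma, adjusted p = 0.0130 and 0.0103). Nsdhl encodes a sterol dehydrogenase of the demethylation steps, and its promoter with 5 CCAAT matches is shown above. It had 7.003, 7.204 and 7.74 in control and 7.07, 7.19 and 7.72 in MBP arrays, rising by 0.69 ± 0.06 over number 1 (limma, adjusted p = 0.0104) and by 0.53 ± 0.06 over number 2 (adjusted p = 0.0139). Here number 1 was lowest on both arrays. For Nsdhl too the annotated transcript and the probe set lie on different chromosomes, so the assignment is less certain. Msmo1, the methylsterol oxidase of the same steps (chromosome 16, 26738367 to 26754806), had 9.34, 9.44 and 9.81 in control and 9.39, 9.31 and 9.82 in MBP arrays, and rose by 0.44 ± 0.07 over each of the other numbers (limma, adjusted p = 0.0337 and 0.0291).

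At the end of the pathway, Sc5d, the desaturase gene (chromosome 8, 45001503 to 45010434), had 8.38, 8.43 and 8.85 in control and 8.25, 8.39 and 8.84 in MBP arrays. Its rise was 0.53 ± 0.06 over number 1 and 0.43 ± 0.06 over number 2 (limma, adjusted p = 0.0193 and 0.0237). Dhcr7, which encodes the last reductase of the pathway (chromosome 1, 223874935 to 223890913), had the widest range of the 29 genes. It stood at 6.43, 6.75 and 7.42 in control and 5.95, 6.61 and 7.32 in MBP arrays, so that number 1 was lowest, number 2 between and number 3 highest in both groups. Number 3 exceeded number 1 by 1.19 ± 0.11 (2.27-fold, limma, adjusted p = 0.0112) and number 2 by 0.69 ± 0.11 (adjusted p = 0.0280), while number 2 against number 1, at 0.49, did not pass (adjusted p = 0.145).

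The other ring genes did not pass the F-test. Lss, the lanosterol synthase gene, had number means of 6.76, 6.94 and 7.11 (F-test in limma, adjusted p = 0.0863). Ebp had 6.88, 6.94 and 7.05 (adjusted p = 0.312). Tm7sf2, a sterol reductase gene below background, had 4.47, 4.503 and 4.78 (adjusted p = 0.149), from 4.39, 4.57 and 4.75 in control and 4.54, 4.43 and 4.81 in MBP arrays.

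**Figure D3:**
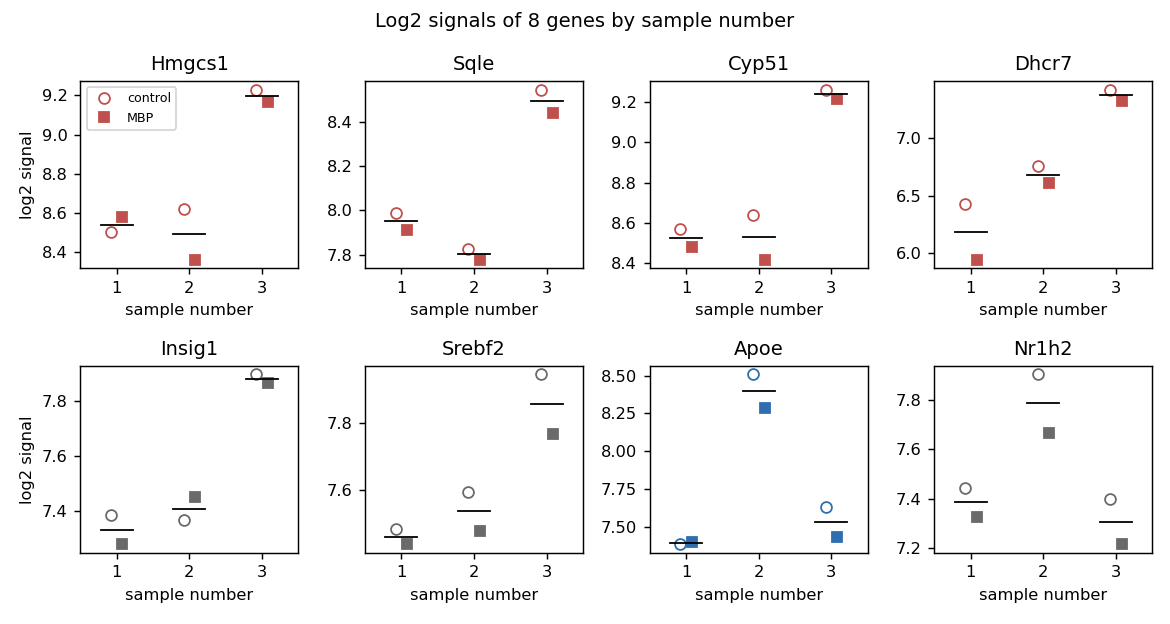
Log2 signals of 8 genes against sample number, with open circles for control arrays, filled squares for MBP arrays and bars for the mean of the 2 arrays of a number. Axes differ between panels and do not start at 0. Hmgcs1, Sqle, Cyp51, Dhcr7, Insig1 and Srebf2 are highest in number 3, and Apoe and Nr1h2 in number 2.

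Among the control genes, Insig1 and Srebf2 passed the F-test and were highest in number 3, as the called synthesis genes were. Insig1 encodes the endoplasmic reticulum anchor of the SREBP pathway and is itself an SREBP target, and its promoter is shown above (gene on chromosome 4, 337380 to 345601, Rnor_5.0). It had 7.38, 7.37 and 7.90 in control and 7.28, 7.45 and 7.86 in MBP arrays. Number 3 lay above the rest, by 0.55 ± 0.07 over number 1 (1.46-fold, limma, adjusted p = 0.0225) and 0.47 ± 0.07 over number 2 (adjusted p = 0.0255). Srebf2 (chromosome 7, 123364495 to 123422294) had 7.48, 7.59 and 7.95 in control and 7.44, 7.48 and 7.77 in MBP arrays. It rose by 0.398 ± 0.07 over number 1 (limma, adjusted p = 0.0347) and by 0.32 ± 0.07 over number 2 (adjusted p = 0.0479), the smallest rise among the genes that passed both contrasts.

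Scap, the escort gene, did not pass, with number means of 7.402, 7.46 and 7.51 (F-test in limma, adjusted p = 0.514). Insig2 and Nr1h3, the second Insig gene and the gene of liver X receptor alpha, were below background, with number means of 5.52, 5.405 and 5.34 and of 3.65, 3.54 and 3.39. Nr1h3 had 3.61, 3.54 and 3.402 in control and 3.68, 3.54 and 3.37 in MBP arrays. Neither passed the F-test (adjusted p = 0.387 and 0.119). Nr1h2, the gene of liver X receptor beta (chromosome 1, 101619967 to 101625287), took another order, with 7.44, 7.903 and 7.3997 in control and 7.33, 7.67 and 7.22 in MBP arrays. Both arrays of number 2 were above the other 4, and number 3 was 0.48 ± 0.06 below number 2 (limma, adjusted p = 0.0194).

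The transport gene of widest range was Apoe (chromosome 1, 81878373 to 81881182), which encodes an apolipoprotein that carries cholesterol out of cells and back to lipoprotein receptors. Its log2 signals were 7.38, 8.51 and 7.63 in control arrays 1, 2 and 3 and 7.398, 8.29 and 7.43 in MBP arrays. Number 2 stood apart in both groups. It exceeded number 1 by 1.01 ± 0.08 (2.01-fold, limma, adjusted p = 0.0475), and number 3 was 0.86 ± 0.08 below number 2 (1.82-fold, adjusted p = 0.00948). Number 3 against number 1, at 0.14, did not pass (adjusted p = 0.397).

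Abca1 and Abcg1, the export pumps that are liver X receptor targets, were also highest in number 2, at signals below background, so no fold is given. Abca1 had 4.86, 5.56 and 4.896 in control and 4.92, 5.28 and 4.897 in MBP arrays, and its F-test had an adjusted limma p of 0.0534. Its dimmer second probe set, at 3.23 to 3.71, did not show that order, with 3.23, 3.41 and 3.46 in control and 3.46, 3.46 and 3.71 in MBP arrays. Abcg1, whose values are given above, was highest in number 2 and lowest in number 3 in both groups, with number means of 4.72, 5.07 and 4.38 (number 3 against number 2 in limma, adjusted p = 0.0162).

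The other 5 transport genes did not pass. Lrp1, a large endocytic receptor, had 8.71, 8.82 and 9.16 in control and 8.83, 8.68 and 9.04 in MBP arrays, with number 3 above the other arrays but an F-test adjusted limma p of 0.104. Soat1, which esterifies cholesterol for storage, had 8.69, 8.89 and 8.93 in control and 8.83, 8.87 and 8.96 in MBP arrays (adjusted p = 0.296). Npc1 and Npc2, which move cholesterol out of lysosomes, had number means of 6.21, 6.305 and 6.21 and of 8.56, 8.59 and 8.44 (adjusted p = 0.645 and 0.361). Stard4, a cytosolic sterol carrier gene below background, had 3.93, 3.95 and 4.08 in control and 3.99, 3.99 and 4.09 in MBP arrays (adjusted p = 0.359).

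**Figure D4:**
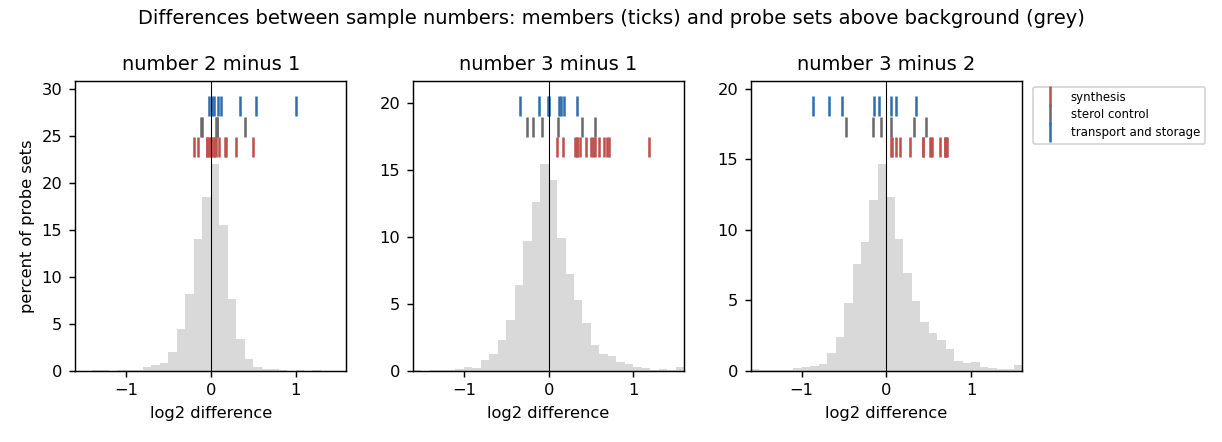
Log2 differences between sample numbers, averaged over the control and MBP arrays. Ticks are the 29 genes by class and grey bars the percent of the 6341 probe sets above background in bins of 0.1. All 15 synthesis ticks lie right of 0 when number 3 is set against number 1 or 2, while transport ticks lie on both sides.

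Further genes of lipid supply and sterol metabolism were read from a list of 48, of which 45 were measured and 24 were above background on all arrays. None was called between MBP and control (limma), where 28 of 45 were lower and the median difference was -0.012. The smallest p-values belonged to Acss2, an acetyl-CoA synthetase gene, at means of 5.68 in control and 5.41 in MBP arrays (limma, unadjusted p = 0.0966), and to Ch25h, the cholesterol hydroxylase gene, at 3.501 and 3.698 (unadjusted p = 0.147). Both were below background on at least 5 arrays.

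By sample number 14 of the 45 were called in the F-test, beside 9.62% of all probe sets and 24.1% of those above background, and 9 of the 14 were above background on all arrays. Of the 14, 9 were highest in number 3, 3 in number 2 and 2 in number 1, and the same share among all called probe sets was not counted. Over the 45, number 3 exceeded number 1 in 8 (4.39% of all probe sets, 10.6% of those above background). It was lower in 1 (4.18% and 10.3%). Number 3 exceeded number 2 in 9 (5.72% and 14.5%) and was lower in 3 (4.82% and 12.6%). Fads1 and Fads2, the desaturases of polyunsaturated fatty acids and known SREBP targets, were among those that rose in number 3. Fads1 (chromosome 1, 233178776 to 233193796, Rnor_5.0) had 7.96, 7.83 and 8.7999 in control and 7.95, 7.73 and 8.83 in MBP arrays, and number 3 exceeded numbers 1 and 2 by 0.85 and 1.03 (limma, adjusted p = 0.00817 and 0.00475). Fads2 had 7.399, 7.23 and 8.14 in control and 7.44, 7.12 and 8.198 in MBP arrays, with number 3 above the rest by 0.75 and 0.99 (limma, adjusted p = 0.0120 and 0.00604). The lipoprotein receptor gene Vldlr (chromosome 1, 252487250 to 252518719) had 7.403, 7.38 and 8.18 in control and 7.57, 7.37 and 8.27 in MBP arrays, with number 3 above the rest in both groups, by 0.74 over number 1 and 0.85 over number 2 (limma, adjusted p = 0.0117 and 0.00749).

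Below background, Gramd1c, which encodes a sterol transfer protein, had 4.12, 4.07 and 4.67 in control and 4.26, 4.12 and 4.897 in MBP arrays and was highest in number 3. Scp2, a sterol carrier gene, had 5.68, 4.81 and 5.47 in control and 5.58, 4.42 and 5.64 in MBP arrays and was low in number 2. The probe set of Scp2 is annotated by a single short complementary DNA, so its assignment is uncertain.

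MicroRNAs known to act on cholesterol genes were read on the microRNA arrays. The best known is miR-33, which lies within Srebf2 and is known from human and mouse cells to target Abca1. Its mature sequence in RefSeq, shown because it ties Srebf2 to the export genes, lies at chr7:115593957-115593977 on the plus strand of GRCr8, inside Srebf2 (115542774 to 115600945), with the seed, bases 2 to 8, in capitals.
rno-miR-33-5p: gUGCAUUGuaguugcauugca

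The miR-33 stem-loop had log2 signals of 0.48, 0.68 and 0.69 in control and 0.42, 0.48 and 0.65 in MBP arrays, at the low end of a scale whose median over the 1218 mature and stem-loop probe sets was 0.73. The groups overlapped. Of 11 listed microRNAs 9 could be named by their stem-loop, at signals of 0.09 to 1.39, and none was called (smallest adjusted limma p of 0.993). Over all 1218 probe sets 46 had an unadjusted p under 0.05 and 0 passed adjustment. Mature probe sets were not named here, so the mature forms were not analysed.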

How the data were processed

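RNA of 3 control and 3 MBP samples was measured on a whole-transcript gene array and, as a separate set, on a microRNA array, 12 arrays in all. The deposited values are log2 signals with array medians of 3.84 to 3.89 on the gene arrays, scaled by the authors before deposit. The log2 unit follows from their range. MAS5 appears in the submitters' processing notes without a role, whereas the annotated table's header calls its own signals RMA, so the method behind the values is not stated. The annotated file also has 6 signal columns that carry names of no sample and were not used. Its annotation text gave gene symbols and Rnor_5.0 positions. Positions of Acat2 and Nsdhl are left out because the annotated transcript and the probe set lie on different chromosomes. The assignment of these probe sets is therefore less certain. Promoters, the microRNA sequence and their coordinates come from RefSeq tables of build GRCr8.

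All 27342 main probe sets were fitted with limma 3.58.1 in R 4.3.3, MBP minus control without a block and, separately, sample number with group, with Benjamini-Hochberg adjustment over all of them. The fits were run on simulated data with independent noise and planted changes larger than any difference of the cholesterol genes. This checked that planted changes were estimated correctly. It does not measure power or error rates for paired arrays such as these. Deviations of same-numbered control and MBP arrays from their group means correlated at 0.567, 0.603 and 0.779, and those of different numbers at -0.535 to 0.0481, so the numbers pair the samples. This pairing rests on the data alone, as the labels hold no more than a common number.

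The genes and lists were chosen with earlier results of these data known. Per-array values are given for the 12 genes of widest range among those passing the F-test, the 2 synthesis and 2 transport genes of smallest p for MBP, the 3 brightest and the 3 dimmest probe sets, and, of the 48 further genes, the 6 passing genes of largest change. Of these 6, 1 gene is not reported here. Per-array values of Srebf2, Nr1h2 and Abca1 and of second probe sets were added after their values were seen. Alternatives were quantile normalization, median centring, probe sets above background only, an intensity trend in the variance prior, the mean of all probe sets of a gene, changed class membership, number without group, the replicate block, and leaving out each array. Precision is limited by the number of arrays.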

Additional observations from a re-analysis of the deposited data

How the results depend on the processing

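The count of 0 cholesterol genes called between MBP and control held under every alternative fitted, among them the replicate block (0 genes, smallest adjusted limma p of 0.865), quantile normalization and each left-out array. The number of genes called between sample numbers was 15, and 15 or 16 under quantile normalization, median centring, the intensity trend, probe sets above background only and the fit without group. Over the array the count was 2630 of 27342 probe sets, against 3614, 3614 and 3656 under quantile normalization, median centring and the intensity trend and 3485 without group. Fitted on the 6341 probe sets above background alone it was 4052 (63.9%), with 16 of 20 genes called. Leaving out any 1 array gave 0 calls in the gene list and over the array, with 1 residual degree of freedom.

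With 1 array left out, the synthesis medians ranged from 0.432 to 0.522 for number 3 minus 1, from 0.45 to 0.544 for number 3 minus 2, from -0.0691 to 0.0816 for number 2 minus 1 and from -0.186 to 0.101 for MBP minus control. The transport medians ranged from -0.0204 to 0.128, from -0.166 to -0.076, from 0.0393 to 0.177 and from -0.0464 to 0.0582 in the same order. Over the transport genes above background on all arrays (Npc2, Soat1, Lrp1 and Apoe alone), the medians were 0.163 for number 3 minus 1 and -0.0456 for number 3 minus 2. Under quantile normalization and median centring the synthesis medians for number 3 minus 1 were 0.507 and 0.471. Abcg1, higher with MBP, had differences from -0.004498 (without control replicate 3) to 0.3961 with 1 array left out. The MBP differences with 1 array left out were fitted without the block, so they also carry differences between sample numbers. Signal over background limits what can be said of the 7 genes below it on every array.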
